A study of Homo sapiens with 2 samples.

Results

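The genes described here are 10 genes of splicing control, found by their symbols among the 44591 genes of the count table: the 4 CLK kinase genes (CLK1, CLK2, CLK3 and CLK4) and 6 SR protein genes (SRSF1, SRSF2, SRSF3, SRSF5, SRSF6 and SRSF7). They were read in total RNA of HSC-1, an established cell line of cutaneous squamous cell carcinoma, which received either the control siRNA (siNC) or siRNA that targets LINP1, a long non-coding RNA (siLINP1). Per the labels, both cultures were transfected at 70% confluency, kept 6 h in medium without serum and grown for a further 24 h in medium with serum. The confluency and the time to extraction in the study's methods differ from these. Each condition had 1 library, so no test between conditions was possible, no p-value is given, and every interval below covers counting error only.

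SR proteins are splicing factors with RNA recognition motifs and a tail rich in arginine and serine. They bind exons and nearby introns, help to recruit the spliceosome, and several of them also act in mRNA export and translation. CLK kinases are nuclear kinases that phosphorylate the serines of this tail and release SR proteins from nuclear speckles into active splicing. Transcripts of both families carry poison exons or retained introns, through which the proteins are known to limit their own mRNA by nonsense-mediated decay or by holding it in the nucleus.

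The siNC library held 18829544 counted reads and the siLINP1 library 15383081. A gene's log2 fold change compares siLINP1 with siNC after division by size factors of 1.08 and 0.930, and the 95% interval beside it comes from the share of its reads that fell in siLINP1 (Clopper-Pearson). LINP1 itself had 167 reads in siNC and 23 in siLINP1, which is a log2 change of -2.65 (95% interval -3.35 to -2.02). Of 12 genes that mark squamous keratinocytes, 5 reached 1 RPKM (reads per kilobase of gene length, scaled to the total count) in siNC and 6 in siLINP1. CDH1, the epithelial cadherin, was read 14 times in siNC and 3 times in siLINP1. ITGB4 was the most read of the 12, with 5990 and 3962 reads, and DSP had 699 and 512. Of 8 mesenchymal markers, 6 and 5 reached 1 RPKM, led by VIM with 61097 and 41992 reads. COL1A2, with 4 and 8 reads, and COL3A1, with 8 and 6, stayed below 1 RPKM in both libraries. On the squamous side, TP63, DSG3, EPCAM and KRT5 also stayed below 1 RPKM in both libraries. Of the mesenchymal markers, SPARC had 505 and 382 RPKM and CDH2 22.2 and 15.9. The median of the 12 squamous markers was 0.77 RPKM in siNC and 0.94 in siLINP1, and that of the 8 mesenchymal markers 5.10 and 3.89. The libraries thus show part of the squamous profile of the label and not the full one, beside high levels of several mesenchymal genes. The part of this in the values below was not tested.

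Depletion of LINP1 was accompanied by higher read counts of a subset of these genes. CLK4, CLK1 and SRSF6 were higher in siLINP1 by more than 1.5-fold, with folds of 2.05, 1.68 and 1.54, while 0 of the 10 genes were lower by that much. Among the 19840 genes with at least 10 reads over both libraries, 14.4% passed 1.5-fold upward and 13% downward, and among the 7071 genes with at least 1000 reads these shares were 5.47% and 3.56%. All 10 members passed the minimum of 10 reads, and 9 had at least 1000 reads, CLK4 being the exception with 676. The median log2 fold change of the 10 members was 0.20, beside -0.02 over the 19840 genes and -0.04 over the 7071. The members did not move as a block, with log2 fold changes from -0.13 for CLK2 to 1.03 for CLK4.

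**Figure D1:**
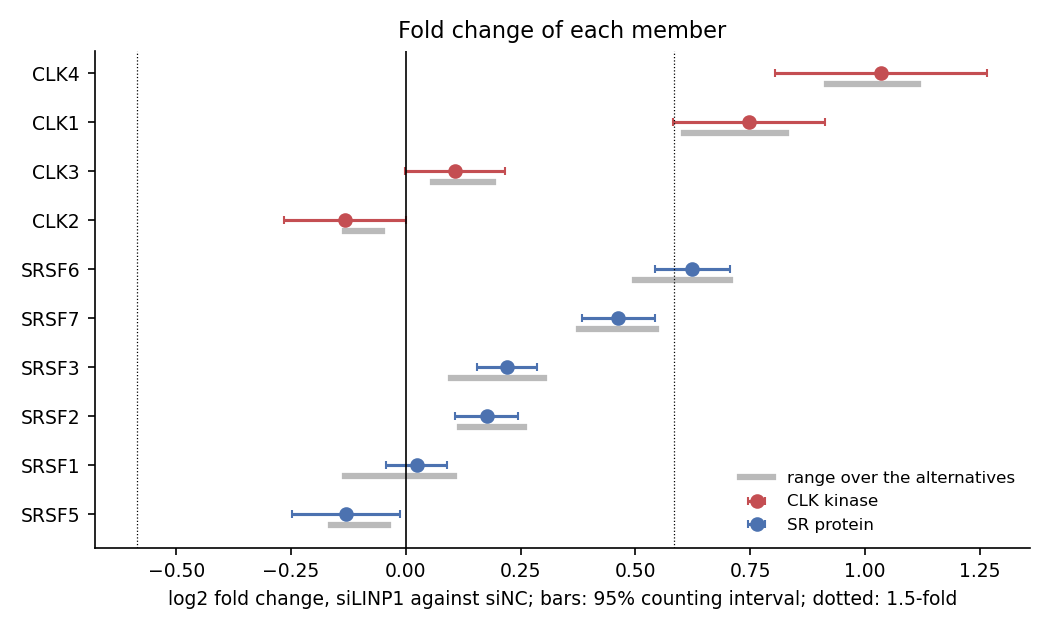
The log2 fold change of siLINP1 against siNC is plotted for each of the 10 members (points, CLK kinases in red and SR proteins in blue) with its 95% counting interval (bars) and its range over the processing alternatives (grey bars), beside dotted lines at 1.5-fold. CLK4, CLK1 and SRSF6 lie to the right of 1.5-fold, and the grey bar of SRSF6, from 0.50 to 0.71, crosses that line.

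Among the kinases, CLK4 changed most. CLK4 (chr5:178029665-178054054 on the minus strand, GRCh37) had 244 reads in siNC and 432 in siLINP1, or 227 and 465 scaled reads. Its log2 fold change of 1.03 (95% interval 0.80 to 1.27) was the only one among the 10 members whose whole interval lay beyond 1.5-fold. This held for 3.98% of the genes with at least 10 reads in the upward and 2.06% in the downward direction, and for 3.55% and 1.58% of those with at least 1000 reads. A log2 fold change larger than that of CLK4 was seen for 6.32% of the genes with at least 10 reads and 1.26% of those with at least 1000.

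CLK1 (chr2:201717732-201729467, minus strand), the closest relative of CLK4, had 508 and 737 reads. Its log2 fold change was 0.75 (95% interval 0.58 to 0.91), which 227 of the 7071 well-read genes exceeded. The lower end of the interval lay just below 1.5-fold, at a fold of 1.496. Scaling by TMM factors put the whole interval of CLK1 beyond 1.5-fold, and scaling by the total count did so for CLK1 and SRSF6, which gives 2 and 3 such members with CLK4. Under the same scalings, 3.89% and 4.64% of the well-read genes had the whole interval above 1.5-fold.

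The other kinase genes were near level. CLK2 (chr1:155232659-155243320, minus strand), which like its relatives phosphorylates SR proteins, had 1055 reads in siNC and 832 in siLINP1, which is a log2 change of -0.13 (95% interval -0.27 to -0.0007). CLK3 (chr15:74900713-74922542, plus strand) had 1418 and 1321 reads, and the interval around its log2 fold change of 0.11 ran from -0.002 to 0.22. CLK1 and CLK4 together had 752 and 1169 reads (0.85, 95% interval 0.71 to 0.98), and CLK2 and CLK3 together 2473 and 2153 reads (0.01, 95% interval -0.07 to 0.09).

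The ratio of the reads of 2 genes within a library does not depend on how the libraries are scaled. CLK1 and CLK4 together had 0.304 reads for each read of CLK2 and CLK3 in siNC and 0.543 in siLINP1, a log2 change of 0.84 (exact 95% interval 0.68 to 0.99). Over the 6 pairs of kinases the log2 change of the ratio ranged from 0.24 to 1.17, and the interval left out 0 for each of the 6. The gene with the higher fold change was put first in each pair, so every value is positive, and pairs share genes. The share for pairs of other genes was not computed. The interval of a single gene's fold change lay above 0 for 31.7% and below 0 for 40.7% of the genes with at least 1000 reads. The largest was CLK4 against CLK2, at 1.17 (95% interval 0.90 to 1.44). CLK4 against CLK1 was the least certain, with 0.29 (95% interval 0.002 to 0.57).

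Levels between genes are compared per length, in RPKM, which is scaled to the total count and not by the size factors. In siNC, CLK3 and CLK2 were read at 27.4 and 25.7 RPKM, CLK1 at 7.11 and CLK4 at 5.17. In siLINP1 the same genes stood at 31.2, 24.8, 12.6 and 11.2 RPKM. CLK1 and CLK4 made up 18.8% of the summed RPKM of the 4 kinase genes in siNC and 29.8% in siLINP1. CLK2 and CLK3 thus remained the genes with the higher levels in both libraries.

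**Figure D2:**
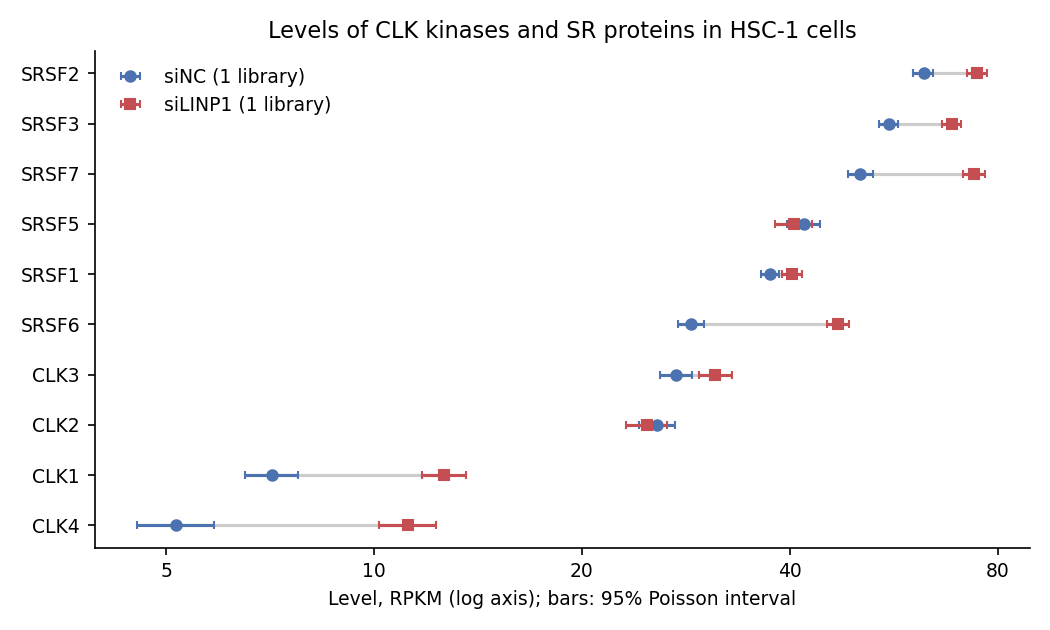
The level of each member in RPKM (horizontal log axis) is plotted for the siNC library (blue circles) and the siLINP1 library (red squares), with 95% Poisson intervals as bars. CLK4 and CLK1 move from 5.17 and 7.11 to 11.2 and 12.6 RPKM, and SRSF6 from 28.8 to 47.0, while SRSF5 and CLK2 stay within overlapping bars. RPKM is scaled to the total count, not by the size factors behind the fold changes. The bars of CLK3 and SRSF1 do not overlap here, although the intervals of their log2 fold changes hold 0.

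The promoters of the kinase genes are shown because 2 of the 4 genes were higher in siLINP1 and the other 2 near level. Each is the stretch of 250 bases before an annotated start, 5′ to 3′ on the strand of the gene, from RefSeq on GRCh38.p14 (a later build than that of the count table). Capitals mark TGACG, the core of the cAMP response element (CRE), or its complement CGTCA. The windows are chr5:178627051-178627300 on the minus strand for CLK4, chr2:200864659-200864908 on the minus strand for the first of 2 listed starts of CLK1, chr15:74615586-74615835 on the plus strand for the second of 2 listed starts of CLK3, and chr1:155273505-155273754 on the minus strand for CLK2.
CLK4: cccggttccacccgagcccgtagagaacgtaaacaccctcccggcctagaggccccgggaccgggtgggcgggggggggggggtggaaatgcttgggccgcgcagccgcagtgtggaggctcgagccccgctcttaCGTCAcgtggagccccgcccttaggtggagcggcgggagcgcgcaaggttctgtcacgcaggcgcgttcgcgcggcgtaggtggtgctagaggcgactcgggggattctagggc
CLK1: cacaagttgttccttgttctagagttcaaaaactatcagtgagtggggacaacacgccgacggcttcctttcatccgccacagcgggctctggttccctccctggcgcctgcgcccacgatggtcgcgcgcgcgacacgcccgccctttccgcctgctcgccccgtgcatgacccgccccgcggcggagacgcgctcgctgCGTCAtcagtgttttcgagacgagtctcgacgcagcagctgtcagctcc
CLK3: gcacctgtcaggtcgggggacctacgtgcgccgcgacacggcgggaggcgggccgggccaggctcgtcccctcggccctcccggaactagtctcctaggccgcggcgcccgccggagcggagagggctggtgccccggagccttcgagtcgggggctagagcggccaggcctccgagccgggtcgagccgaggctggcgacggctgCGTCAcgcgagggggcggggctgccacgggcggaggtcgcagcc
CLK2: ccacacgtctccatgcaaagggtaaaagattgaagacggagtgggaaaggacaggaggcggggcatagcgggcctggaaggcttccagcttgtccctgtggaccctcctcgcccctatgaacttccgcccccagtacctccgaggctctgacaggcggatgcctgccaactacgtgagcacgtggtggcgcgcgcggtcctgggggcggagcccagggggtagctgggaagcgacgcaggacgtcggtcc

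The TGACG core starts 114 bases before the start of CLK4, 49 before that of CLK1 and 44 before this start of CLK3, and in CLK4 it overlaps the E-box CACGTG. The window at the other listed start of CLK3 holds no TGACG, nor does 1 of the 2 windows of SRSF7. The window of CLK2 holds none either, and it shares the E-box with CLK4, which 6.34% of all windows hold. TGACG was found in 8 of 12 windows of the 9 members with a listed promoter, which are windows of 7 genes, and in 21.2% of all promoter windows of the same length. The 2 windows of CLK1 overlap and hold the same match, and the share of all genes with a match was not computed. By gene, TGACG was found in CLK4, CLK1, SRSF1, SRSF5 and SRSF3, and in 1 of the 2 windows each of CLK3 and SRSF7. A link between the match and the fold changes was not tested. The window of SRSF6 held no TGACG. The full CRE (TGACGTCA), the AP-1 site (TGANTCA), an ATF4 composite site (TGATGNAA) and a heat shock element (GAANNTTC) were found in 0 of the 12 windows, and in 1.65%, 6.57%, 3.14% and 5.78% of all windows. The GC box (GGGCGG) was found in 8 of the 12 and in 42.6% of all windows, and the CCAAT box in 2 of the 12 and in 32.0%. The 12 windows held 54.8% to 78% GC, and the shares of all windows were not matched for GC content. A match or its absence describes these letters and says nothing of the factor.

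Among the SR proteins, SRSF6 and SRSF7 stood above the rest. SRSF6 (chr20:42086504-42092245, plus strand), a splicing factor with a pair of RNA recognition motifs, had 2177 reads in siNC and 2902 in siLINP1, which is a log2 change of 0.62 (95% interval 0.54 to 0.70). Removal of the trend of fold change with GC content and length lowered this to 0.50, below 1.5-fold. SRSF7 (chr2:38970741-38978636, minus strand), which carries a zinc knuckle beside its recognition motif and also acts in mRNA export, had 2373 and 2829 reads, which is a log2 change of 0.46 (95% interval 0.38 to 0.54). Of the 7071 well-read genes, 331 had a larger log2 fold change than SRSF6 and 618 a larger one than SRSF7.

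SRSF3 and SRSF2 were higher by less. SRSF3 (chr6:36562090-36572244, plus strand), the smallest of the SR proteins and an export adaptor, had 3774 and 3800 reads, which is a log2 change of 0.22 (95% interval 0.15 to 0.28). SRSF2 (chr17:74730197-74733493, minus strand), which stays in the nucleus, had 3486 and 3406 reads (0.18, 95% interval 0.11 to 0.24). The raw counts of these genes were nearly equal in both libraries, so their fold changes rest on the scaling, as the siLINP1 library had fewer reads.

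SRSF1 and SRSF5 were the SR genes with the lowest values. SRSF1 (chr17:56078280-56084707, minus strand), the founding member of the family, had 3980 and 3499 reads, and its log2 fold change of 0.02 (95% interval -0.04 to 0.09) changed sign between -0.13 and 0.11 over the alternatives. SRSF5 (chr14:70233804-70238722, plus strand) had 1322 and 1045 reads, which is a log2 change of -0.13 (95% interval -0.25 to -0.01). In all, the interval lay above 0 for 6 of the 10 members, below 0 for 2 (CLK2 and SRSF5), and held 0 for 2. It lay above 0 for 23% and below 0 for 25.6% of the genes with at least 10 reads, and for 31.7% and 40.7% of those with at least 1000. Scaling by TMM factors left 7 members above 0 and 0 below, beside 34.4% and 37.2% of the genes with at least 1000 reads. Scaling by the total count left 8 above and 0 below, beside 40.9% and 30.9%.

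**Figure D3:**
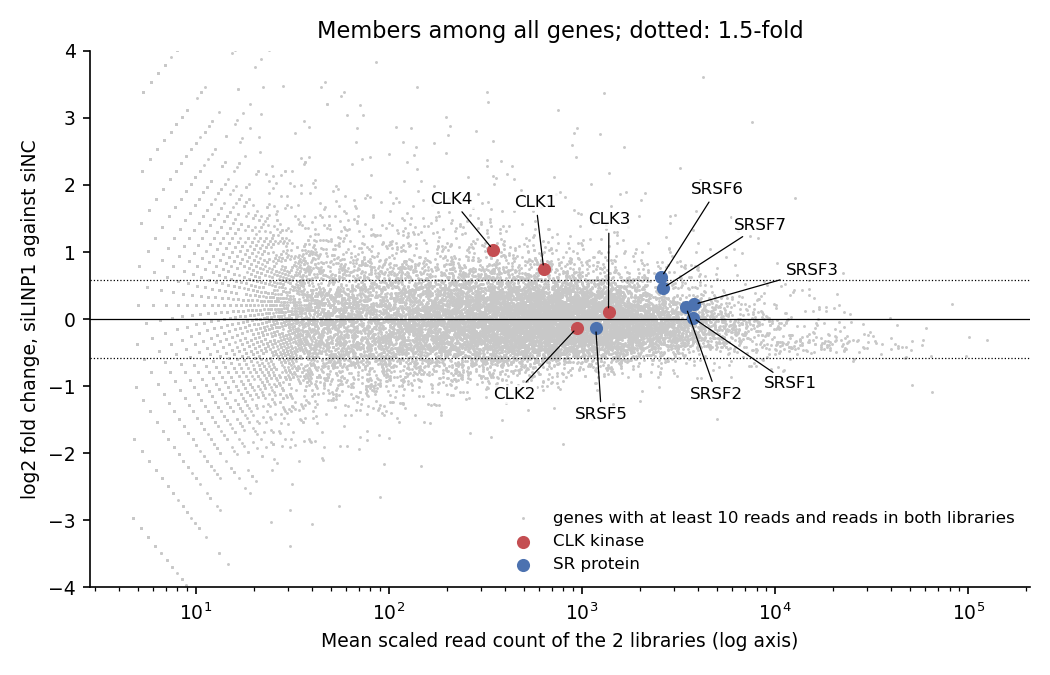
The log2 fold change is plotted against the mean scaled read count (log axis) for the 19795 genes with at least 10 reads and reads in both libraries (grey), with CLK kinases in red and SR proteins in blue; 27 genes lie outside the plotted range. CLK4 and CLK1 sit above the dotted 1.5-fold line at lower counts than the SR proteins, SRSF6 sits just above it, and the other members lie between the dotted lines.

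The ratios between SR genes put an interval on the differences among their fold changes. Of their 15 pairs, ordered as for the kinases, 14 had an interval of the log2 change of ratio that left out 0. SRSF3 against SRSF2 did not (0.04, 95% interval -0.05 to 0.14). The share for pairs of other genes was not computed here either. SRSF6 had 1.65 reads for each read of SRSF5 in siNC and 2.78 in siLINP1, the largest change among the pairs, 0.75 on the log2 scale (95% interval 0.61 to 0.90). SRSF6 against SRSF7 changed by 0.16 (95% interval 0.05 to 0.27). The 6 SR genes together had 17112 reads in siNC and 17481 in siLINP1 (log2 fold change 0.24, 95% interval 0.21 to 0.27), and the 4 kinase genes 3225 and 3322 reads (0.25, 95% interval 0.18 to 0.32).

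**Figure D4:**
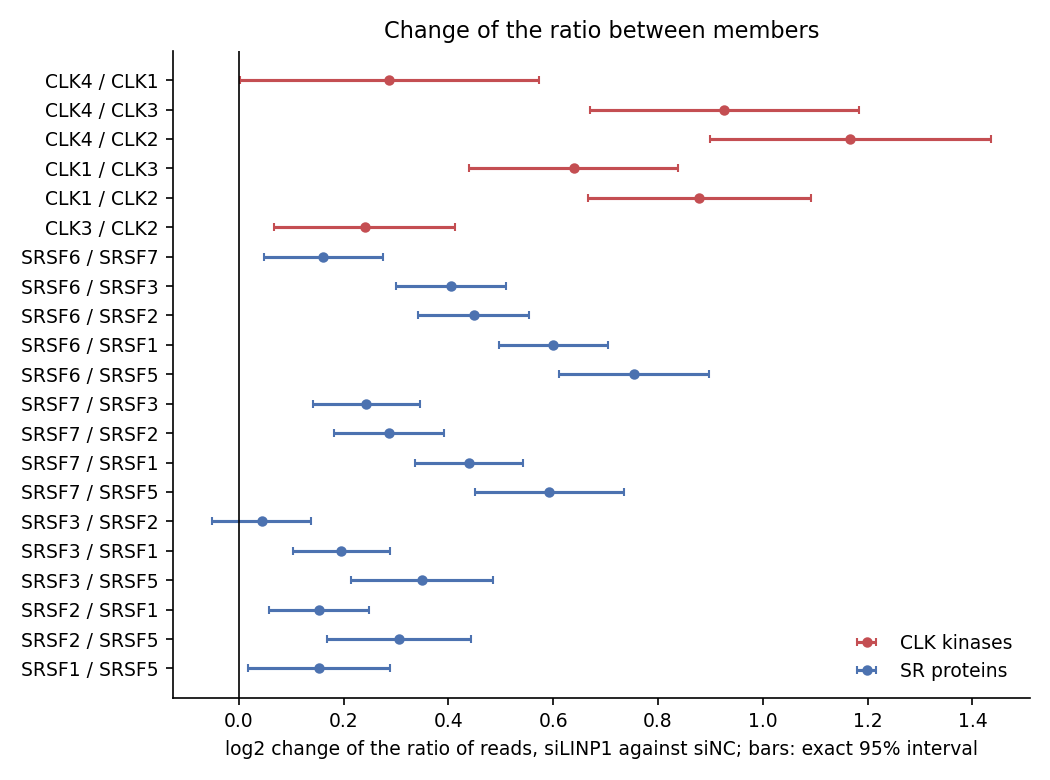
Each point is the log2 change, from siNC to siLINP1, of the ratio of reads of the 2 genes named at the left, for the 6 pairs of CLK kinases (red) and the 15 pairs of SR proteins (blue), with exact 95% intervals as bars. CLK4 and CLK1 against CLK2 and CLK3 lie at 0.64 to 1.17, SRSF6 / SRSF5 lies at 0.75, and SRSF3 / SRSF2 is the pair whose bar crosses 0.

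The order of the SR genes by level also differed between the libraries. In siNC it ran from SRSF2 at 62.5 RPKM through SRSF3 (55.7), SRSF7 (50.6), SRSF5 (41.9) and SRSF1 (37.5) to SRSF6 (28.8). The Poisson intervals of neighbours in this order did not overlap. In siLINP1 it was SRSF2 (74.7), SRSF7 (73.9), SRSF3 (68.6), SRSF6 (47.0), SRSF5 (40.5) and SRSF1 (40.3), where SRSF2 and SRSF7 overlapped, as did SRSF5 and SRSF1. SRSF6 thus moved from the lowest of the 6 genes to the fourth place. It took 10.4% of the summed RPKM of the 6 genes in siNC and 13.6% in siLINP1, while SRSF5 took 15.1% and 11.7%.

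GC content of the canonical transcript (GENCODE, GRCh37) differed among the members. It was 37.3% for CLK4, 38.6% for CLK1 and 39.8% for SRSF6, the members beyond 1.5-fold, and 55.4% and 55.9% for CLK2 and CLK3. SRSF1 at 38.7% and SRSF3 at 39.4% had as little GC with log2 fold changes of 0.02 and 0.22. SRSF7, the next highest member after SRSF6, had 39.98% GC and a log2 fold change of 0.46. SRSF5 had 42.98% with -0.13, and SRSF2 49.6% with 0.18. The trend with GC content was taken from the longest annotated transcript of each gene, not from the canonical one. After the trend with GC content and length was removed over 11974 genes, CLK4 stood at 0.92 and CLK1 at 0.61, still beyond 1.5-fold, and the median of the members at 0.11.

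The counts merge the transcripts of a gene. GENCODE lists 126 transcripts for the 10 genes, of which 47 are protein-coding, 23 are annotated for nonsense-mediated decay and 42 as retained introns. Retained introns make up 8 of 14 listed transcripts for CLK1, 7 of 13 for CLK4, 8 of 27 for CLK3 and 0 of 7 for CLK2. SRSF7 has the most transcripts annotated for nonsense-mediated decay, 6 of 12. Whether coding or non-coding forms account for a fold change cannot be told from gene counts.

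Some reads can belong to neighbours or copies, since the strand setting and the treatment of multiple matches in the counting are not given in the sources used here. SRSF2 overlaps MFSD11 by 847 bases on the opposite strand, and 26.0% of the 50-base stretches of its canonical transcript also lie in transcripts of MFSD11, which had 453 and 430 reads (log2 fold change 0.13, 95% interval -0.06 to 0.33). MIR636, which also lies within SRSF2, had 0 reads. For SRSF1 and SRSF6, 29.3% and 16.7% of such stretches recur in other annotated genes on either strand. Most of these lie in ENSG00000266086 for SRSF1 and in ENSG00000288000 for SRSF6, and SRSF6 also has a pseudogene, SRSF6P2. CLK2 shares 6.13% with its pseudogene CLK2P1, which had 0 reads in either library, and CLK3 shares 3.32% with ENSG00000276667. For SRSF3 the share was 0.861%. The share was 0% for CLK1, CLK4, SRSF5 and SRSF7. No 50-base stretch was shared between any of the 10 members. At SRSF5 the antisense LOC100289511 had 13 and 30 reads. CLK3 overlaps ENSG00000260919.1 on the opposite strand, with 1 and 4 reads.

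The siRNAs are shown because a siRNA can also lower mRNAs that match its seed. The study lists siLINP1_01 and siLINP1_02 by their target sequence and does not say which was used for sequencing. Capitals mark the stretch that pairs with bases 2 to 8 of the guide strand, both here and in the matches in 3′ untranslated regions of members.
siLINP1_01: ccaactgcgggACTTCAGa
siLINP1_02: cactctccagcCTGCAAGa
SRSF2: ggtgaacgACTTCAGatttcatt
SRSF6: ggcctcttCTGCAAGaggaatct

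Each target was found in 4 of 4 annotated LINP1 transcripts. Of the 10 members, SRSF2 had 1 match for siLINP1_01, at position 228 of its 3′ untranslated region, and SRSF6 had 1 match for siLINP1_02, at position 83. Over 19063 genes with such a region, 14.6% held a match for the former and 12.1% for the latter. The log2 fold changes of SRSF2 and SRSF6 were 0.18 and 0.62, and that of SRSF2 rests on the scaling. Whether either siRNA acted on these mRNAs was not tested. The other 8 members held 0 matches for either siRNA. A match describes letters and was not tested as a site.

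Other regulators of splicing give the surroundings of these genes. Of 8 other SR and SR-like proteins, 7 had at least 10 reads, with a median log2 fold change of 0.20, and SRSF8 was higher by more than 1.5-fold (646 and 992 reads, 0.83, 95% interval 0.68 to 0.97). TRA2A, a factor that binds exonic enhancers, followed with 0.58 (1051 and 1356 reads). At the lower end, SRSF10 had 0.15 (95% interval 0.06 to 0.24) and SRSF9 had 2935 and 2107 reads, which is a log2 change of -0.27 (95% interval -0.35 to -0.19). The list of other kinases of SR proteins and their import receptor had 7 genes and a median of 0.37. With the trend with length removed the median was 0.21, and 0.15 with that of GC content as well. Trends were removed only for genes with at least 100 reads, so these lower medians leave out SRPK3, the highest gene of the list. They are thus not medians of the same genes as the 0.37. Among them PRPF4B and SRPK1, which phosphorylate splicing factors, had 0.42 and 0.40, TNPO3, the import receptor, had 0.08, and DYRK1B had -0.37. SRPK3, with 30 and 43 reads, was the member of this list beyond 1.5-fold, at 0.73 with an interval from 0.02 to 1.45.

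The 19 SR-related nuclear proteins had a median of 0.02, which turned to -0.06 when the trend with length was removed and to -0.07 with that of GC content as well. CCNL1, a cyclin of speckles that binds CDK11, was higher with 1188 and 2075 reads (1.01, 95% interval 0.91 to 1.12). RSRC2 was also beyond 1.5-fold at 0.60 (1574 and 2061 reads), and 0 of the 19 were lower by that much. LUC7L3 had -0.41 (3960 and 2585 reads) and RSRC1 -0.34.

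The lists of hnRNP proteins and of the core spliceosome lay on the other side. The 21 hnRNP genes, whose proteins often oppose SR proteins at exons, had a median of -0.15, with the interval below 0 for 17 and above 0 for 2, beside 40.7% and 31.7% of the genes with at least 1000 reads. HNRNPD, which encodes the mRNA-binding protein AUF1, had 3413 and 1619 reads (-0.87, 95% interval -0.95 to -0.78), and HNRNPF had -0.53. PTBP2 at 0.83 (336 and 517 reads) and HNRNPH3 at 0.51 were the highest. The 32 genes of the core spliceosome had a median of -0.14, with the interval below 0 for 18 and above 0 for 4. SNRPE, a subunit of the Sm ring, was lower with 1858 and 1028 reads (-0.64, 95% interval -0.76 to -0.53), SNRPD1 had -0.43, and PRPF3 and SF3B2 had 0.42 and 0.29. With scaling by the total count these medians were -0.07 and -0.06, and the intervals below 0 were 13 of 21 and 13 of 32, beside 30.9% of the genes with at least 1000 reads. With the trend with GC content and length removed, the medians were -0.26 for hnRNP proteins, -0.09 for the core spliceosome, -0.17 for nonsense-mediated decay and 0.11 for the other SR and SR-like proteins. The 10 genes of nonsense-mediated decay had a median of -0.06, which turned to 0.02 with scaling by the total count, from UPF1 at -0.34 and SMG9 at -0.30 to UPF3B at 0.20 and SMG1, its kinase, at 0.36.

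**Figure D5:**
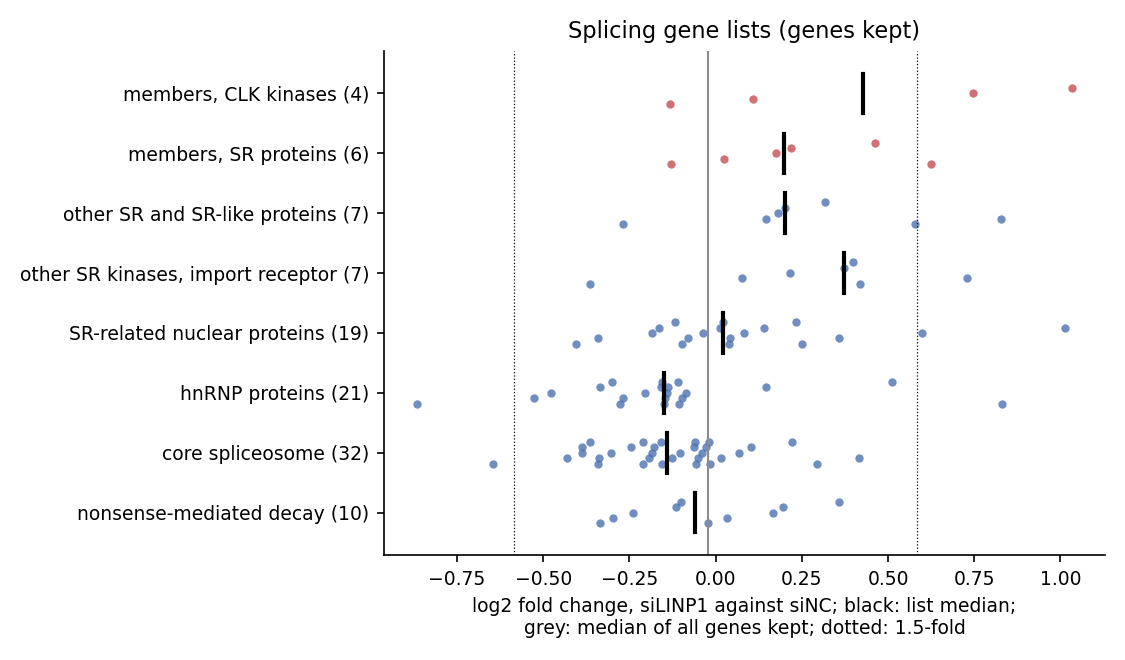
Each point is a gene, placed by its log2 fold change of siLINP1 against siNC, in 2 rows for the members (red) and for 6 other lists of splicing and mRNA decay genes (blue), with the number of genes kept in brackets, list medians as black bars, the median of all genes kept as a grey line and dotted lines at 1.5-fold. The medians of the SR and kinase rows lie between 0.20 and 0.43, and those of the hnRNP and core spliceosome rows at -0.15 and -0.14.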

How the data were processed

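Total RNA of siNC- and siLINP1-treated HSC-1 cells was sequenced by the authors on an Illumina HiSeq instrument, with 1 library per condition. The authors used Tophat2 for alignment (GRCh37/hg19) and HTSeq after it, and deposited read counts per gene that are not normalized. The submitters' processing notes also name HISAT2, HISAT and Bowtie2, with no version. The RPKM values that the authors deposited equal the count over gene length and total count. Another 12 columns with values of samples were left unused.

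Counts were divided by median-of-ratios size factors. Genes with fewer than 10 reads over both libraries were left out, and no pseudocount was used. Named were the 10 members, LINP1, overlapping genes and, from each list, the 2 highest and 2 lowest genes with at least 100 reads. SRPK3, the marker genes and the pseudogenes were named after their values were seen. Members and lists were chosen with earlier results of these data known. Ratios between members have the exact conditional interval of the odds ratio. Transcript features came from GENCODE v44lift37, promoters from RefSeq. Calculations were tested on simulated counts. Alternatives were total-count and TMM scaling, pseudocounts of 1 and 5, minimums of 1 and 100 reads, protein-coding genes only, and removal of trends with length or GC content and length (lowess, fraction 0.3). Python 3.11.15, scipy 1.17.1, statsmodels 0.14.6, R 4.3.3 and edgeR 4.0.16 (TMM factors only) were used.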

Additional observations from a re-analysis of the deposited data

How the results depend on the processing

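The count of members higher by more than 1.5-fold was 3 under each alternative other than the removal of the trend with GC content and length, which gave 2, and the count lower was 0 under each. Among the 19840 genes, the share higher ran from 11.8% (pseudocount of 5) to 16.7% (total count), and the share lower from 10.1% to 13.0%. With the trend with length removed, 8.59% of 13335 genes were higher and 6.05% lower. With GC content as well, 8.02% of 11974 genes were higher and 5.26% lower. The median of the members stayed between 0.11 and 0.28. The number of members with the whole interval beyond 1.5-fold, compared after the data were examined, was 1 and rose to 3 with scaling by the total count, and to 2 with TMM factors, with a minimum of 100 reads and with size factors from protein-coding genes, since each of these moves the folds of all genes upward alike. Among the genes with at least 1000 reads, the share above 1.5-fold rose too, from 3.55% to 4.64%, 3.89%, 3.90% and 3.92% in the same order. The sign of SRSF1 changed with both trend removals, and those of the other 9 members did not change. Without replicates, the spread between cultures was not measured, and the intervals do not include it. Depth limits the genes with few reads most, such as SRPK3 with 73. No paired analysis was possible because each condition had 1 library.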
